A study of Mus musculus with 5 samples.

Results

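The 50 genes described here run the cell cycle and DNA replication, and they were followed over 5 microarrays of mouse kidney and of kidney bud transplants. They were picked by gene symbol for their known roles, out of 24563 named genes on the array. All 50 were found, on 71 probes: 15 act in replication, 26 in mitosis, 5 are D- or E-type cyclins and 4 regulate transcription. The study asked how development-related expression in transplanted kidney buds compares with that of the kidney itself.

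The transplant groups were tissue taken 2 weeks and 4 weeks after kidney buds were transplanted. They were set against kidneys of 3 stages, namely the mid-gestation embryo (E13.5), the day of birth (P0) and 8 weeks of age. Every sample was labelled C57BL/6 (an inbred mouse strain), with no allele or drug named, and each group had 1 array. What cells made up the buds, which host and site received them, and how many animals went onto an array is not given in the sources used here.

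Before a cell divides it must copy its DNA once. In G1 phase, origins are licensed by loading the ring-shaped Mcm helicase, D- and E-type cyclins then release E2F transcription factors, and the enzymes of DNA synthesis work through S phase. Cyclins A and B with Cdk1 drive mitosis, in which the spindle checkpoint holds back the anaphase-promoting complex until every chromosome is attached. The embryonic kidney grows by dividing progenitor and bud tip cells, nephron formation in mice stops soon after birth, and most cells of the adult kidney are out of the cycle.

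A level below is the log2 processed intensity of a gene's probe minus the log2 of that array's 75th percentile, so a level of 0 marks a spot as bright as that percentile. Levels of different genes come from different probes and were not compared with each other. A difference is a level in 1 group minus the level in another, and a gene was counted as higher or lower at 2-fold or more. Where a probe was well above background on only 1 of the compared arrays, the fold is a bound, written as "at least", and probes dim on both were not compared. With 1 array per group there is no replicate check and no p-value, and all values describe single arrays.

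Of the 50 genes, 48 were well above background in the 2-week transplant, 47 in the 4-week transplant, 50 at E13.5, 48 at P0 and 37 at 8 weeks. The median SD between replicate spots of a probe on the same array was 0.052 to 0.060 log2 units, which holds no spread between animals or labellings. The 2-week transplant and the E13.5 array were on slide 1, and the 4-week transplant shared slide 2 with the P0 and 8-week kidneys, so across slides the slide and the group cannot be told apart. Xist, made from the inactive X chromosome, was dim at 8 weeks (level -7.47), and Ddx3y of the Y chromosome was dim at P0 (level -8.15). Both genes were well above background on the other arrays. Xist and Ddx3y had -1.6 and -1.4 in the 2-week transplant, -2.88 and -0.06 in the 4-week transplant, and -0.73 and -0.78 at E13.5. In any comparison with the P0 or the 8-week kidney, sex and group therefore cannot be told apart.

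Markers of other cell types also differed between the arrays. The summed level of 5 macrophage genes was 5.83 and 5.08 in the 2-week and 4-week transplants, against 2.05, 2.63 and 3.84 in the E13.5, P0 and 8-week kidneys, and all 5 were well above background on every array. For 4 adipocyte genes it was 6.59 and 8.11 in the transplants, where all 4 were well above background, against -4.96, -5.0 and -4.46 in the kidneys, where 0, 1 and 0 were. Both sums were thus higher in each transplant than in any kidney. The 4 adrenal cortex genes summed to -2.29 and 6.64 in the 2-week and 4-week transplants, against -2.0, -1.85 and -1.64 in the kidneys, so that this signal stood out in the 4-week transplant alone. The 5 erythroid genes summed to 0.60 and 1.94 in the transplants, where 2 and 1 were well above background, against 4.07, 0.43 and -2.08 in the kidneys, where 4, 3 and 2 were. The transplant sums come almost wholly from Alas2 (0.57 and 1.93), and the E13.5 sum mostly from the embryonic globin Hbb-bh1 (3.87). The 4 neutrophil genes summed to 3.03 and 5.49 in the transplants, against -2.54, 2.57 and -1.11 in the kidneys. The transplant sums come mostly from S100a9 (2.66 and 5.1). In the 2-week transplant S100a9 and Camp were above P0, S100a8 was level with it (0.32 against 0.35) and Ngp was below it (-5.73 against -4.33). Skeletal muscle genes (4) summed to -1.04 and 0.08 in the transplants, where 2 and 1 were well above background, against 3.17, -2.51 and -4.45 in the kidneys, where 4, 3 and 0 were. In the 4-week transplant that sum is Myl1 (0.06) alone, and Actc1 and Myh3 were lower in both transplants than at P0. Of the kidney's own markers, the 4 proximal tubule genes summed to 2.57 and 0.67 in the transplants, against -2.10, 5.82 and 9.59 in the kidneys. The 2 podocyte genes went the other way, with 4.56 and 3.39 in the transplants, against -4.48, 2.72 and 2.77 in the kidneys. Among nephron progenitor genes, Six2 had 2.14 and 0.38 in the transplants, against 4.68, 3.45 and -7.29 in the kidneys, and Cited1 and Gdnf were likewise lower in the transplants than at E13.5 or P0, while Eya1 was highest at 8 weeks. The part of these cell types in the cell cycle values was not tested.

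The members fell into 1 dominant order. Of the 37 well above background on all 5 arrays, 27 had their highest level in the E13.5 kidney, then the P0 kidney, the 2-week transplant and the 4-week transplant, with the 8-week kidney lowest. With dim values at their measured level it was 38 of 50. E13.5 was the highest array for 49 members, all but Ccnd1, and on the same basis 8 weeks was the lowest for 40. These orders were counted for the members alone, so no share over all genes stands beside them. In bulk tissue, fewer dividing cells and less RNA per cell cannot be told apart.

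Both transplants lay below the P0 kidney for 46 of 48 members compared and above the 8-week kidney for 38 of 47, and between these kidneys for 37. Within slide 2, the 4-week transplant was below P0 and above 8 weeks for 39 of 47 members compared, and 2-fold away from both for 33. Within slide 1, the 2-week transplant was below E13.5 for 50 of 50. For the 34 members measured on these arrays with P0 at least 2-fold above 8 weeks, the 2-week transplant stood at a median of 43.9% of the way from the P0 to the 8-week level on the log2 scale (middle 50% of members 39.5% to 57.4%). The 4-week transplant stood at 54.2% (48.4% to 66.2%). These medians pool the replication and the mitosis genes, whose differences are given apart below. Left out are the 11 members with only a bound between 8 weeks and P0, 9 of them mitosis genes. The members share each array and are not replicates. The counts and positions in this paragraph were likewise computed for the members alone. Shares of all genes past 2-fold are given with each comparison below.

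**Figure D1:**
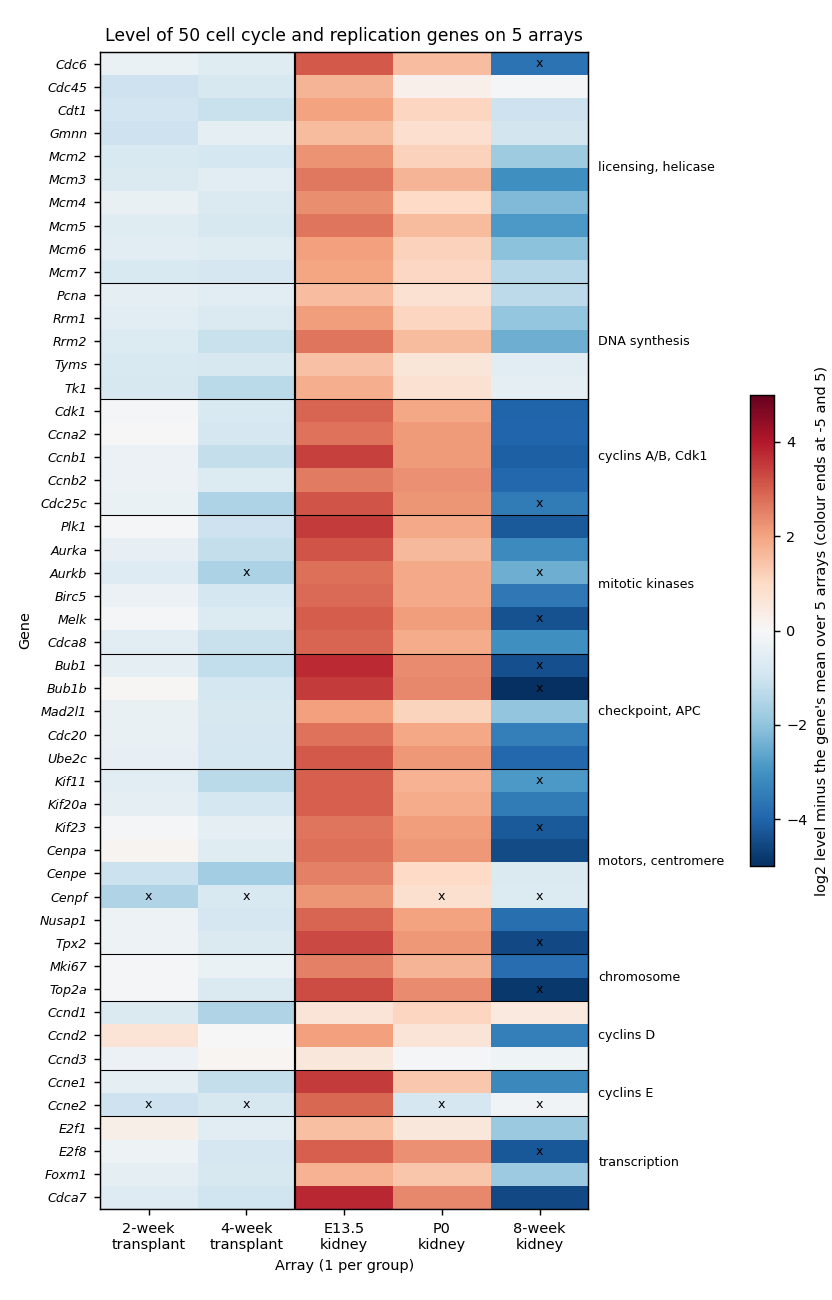
Heat map of the 50 genes (rows, grouped by role) on the 5 arrays (columns), coloured by the log2 level minus the gene's own mean, with an x where the probe was not well above background. Most rows run from high at E13.5 and P0 through the transplants to low at 8 weeks, and the rows of Ccnd1, Ccnd3, Cdc45 and Cenpe are among those that do not.

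The replication and the mitosis genes differed between arrays by different amounts, given below. The sequences before their start sites were also searched for motifs, and a link between motifs and these amounts was not tested. RefSeq windows (GRCm38.p6) of 250 bases before to 50 bases after the start were at hand for 39 members and 27025 genes in all. The other 11 members were Ccna2, Ccnd1, Ccnd2, Ccne2, Aurkb, Cdc25c, Gmnn, Mcm4, Kif20a, Tpx2 and Foxm1. The window whose start lay nearest the gene's 5' end was used. That gap was 466 bases for E2f1, 477 for E2f8, 442 for Cdc6, 316 for Aurka and 228 for Mcm7. These windows may miss bases near the gene's 5' end. The windows were searched on both strands for 3 motifs: the E2F site (TTTCCCGC, TTTGGCGC, TTTCGCGC or TTTGCCGC), the cell cycle homology region, or CHR (TTTGAA), and the CCAAT box (CCAAT). An E2F site stood in 6 of 13 replication windows (46.2%) and 1 of 21 mitosis windows (4.76%), against 2.33% of all windows. CHR stood in 2 of 13 replication windows (15.4%) and 14 of 21 mitosis windows (66.7%), against 18.2% of all. CCAAT stood in 9 of 13 (69.2%) and 17 of 21 (81.0%), against 38.0% of all. The members' windows held 96 matches, with 5 overlapping pairs among them. A match describes letters and not a bound site.

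The 150 bases before the start of 5 members show these patterns, in lower case with matches to any of the 3 motifs, on either strand, in capitals. Mcm6 (chr1:128359706-128359855, minus strand), a helicase subunit, is shown as a replication promoter with 3 E2F matches, 2 of which overlap on opposite strands, and 2 CCAAT boxes. Cdk1 (chr10:69352913-69353062, minus strand), the mitotic kinase, holds 1 E2F site, 2 CCAAT boxes and 2 CHR, and is the only mitosis gene of the 21 with an E2F match. Cdc20 (chr4:118437344-118437493, minus strand), an activator of the anaphase-promoting complex, holds 2 CCAAT boxes and 1 CHR. Top2a (chr11:99024190-99024339, minus strand), the topoisomerase that untangles sister chromatids, holds 4 CCAAT boxes and 1 CHR. Ccnd3 (chr17:47504901-47505050, plus strand), a D-type cyclin, is shown as a window with no match. No match was found in 9 of the 39 windows, and these include genes that differed widely between arrays: the others are Ccne1, Birc5, Mad2l1, Melk, Nusap1, Tk1, Tyms and E2f1. The E2f1 window is among those set off from the gene's 5' end, as given above.
Mcm6: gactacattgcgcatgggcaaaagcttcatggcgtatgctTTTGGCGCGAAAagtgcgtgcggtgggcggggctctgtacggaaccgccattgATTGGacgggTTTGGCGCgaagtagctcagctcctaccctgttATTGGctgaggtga
Cdk1: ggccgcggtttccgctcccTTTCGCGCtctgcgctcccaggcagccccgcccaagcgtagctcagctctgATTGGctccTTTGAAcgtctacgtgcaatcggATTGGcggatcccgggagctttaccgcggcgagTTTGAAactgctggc
Cdc20: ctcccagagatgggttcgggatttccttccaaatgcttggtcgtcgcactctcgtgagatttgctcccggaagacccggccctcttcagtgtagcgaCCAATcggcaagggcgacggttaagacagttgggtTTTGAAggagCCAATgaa
Top2a: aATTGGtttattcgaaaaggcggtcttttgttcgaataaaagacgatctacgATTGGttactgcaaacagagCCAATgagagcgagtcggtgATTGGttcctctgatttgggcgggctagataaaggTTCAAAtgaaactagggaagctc
Ccnd3: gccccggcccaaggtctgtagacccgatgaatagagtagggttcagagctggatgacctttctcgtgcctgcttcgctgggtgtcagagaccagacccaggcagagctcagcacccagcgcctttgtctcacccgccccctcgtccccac

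From E13.5 to birth the members were lower by moderate steps. At P0 against E13.5, 23 of 50 members were lower and 0 higher, against 11.9% of all compared genes lower and 13.9% higher. Their median difference was -0.96, against -0.12 over all genes. With normexp background correction 10 members were lower and 1 higher, with a median of -0.48, against -0.33 over all genes. Of the members, 49 had a negative difference, and the steps of the replication (median -1.04, 8 of 15 lower) and the mitosis genes (median -0.94, 11 of 26 lower) were alike in size.

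After birth the differences were larger. At 8 weeks against P0, on the same slide, 45 of 48 compared members were lower and 0 higher, against 21.0% and 23.6% of all genes. The median was -4.51, against 0.07 over all genes, and 11 of the 48 differences are bounds. The mitosis genes had a median of -5.46 with 25 of 25 lower, and the replication genes a median of -2.93 with 14 of 15 lower. Without the bounds these medians were -5.63 (16 mitosis genes) and -2.68. At 8 weeks against E13.5, 46 of 50 were lower and 0 higher, against 27.3% in either direction over all genes, with a median of -5.51. Of these 50 differences 13 are bounds.

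Set against the E13.5 kidney, both transplants had nearly every member lower. In the 2-week transplant it was 49 of 50, with 0 higher (all genes: 20.3% lower, 21.4% higher), and the median was -3.05. For the 4-week transplant it was again 49 of 50, with 0 higher (all genes: 21.8% lower, 24.4% higher), and the median was -3.48. The exception was Ccnd3 each time, at -0.86 and -0.45.

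Set against the P0 kidney, the 2-week transplant had 45 of 48 compared members lower and 0 higher (all genes: 11.8% lower, 15.4% higher), with a median of -2.06. The 4-week transplant had 46 of 48 lower and 0 higher (all genes: 13.9% lower, 19.2% higher), with a median of -2.66. The members not 2-fold lower were Ccnd2, Ccnd3 and E2f1 at 2 weeks, and Ccnd2 and Ccnd3 at 4 weeks.

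Set against the 8-week kidney the direction turned. In the 2-week transplant 36 of 48 members were higher and 1 lower (all genes: 21.7% higher, 22.5% lower), with a median of 2.29. In the 4-week transplant 34 of 47 were higher and 2 lower (all genes: 22.3% higher, 18.6% lower), with a median of 2.01. The mitosis genes stood furthest from the adult kidney, with medians of 3.26 (22 of 25 higher) and 2.78 (21 of 24 higher) in the 2-week and 4-week transplants. Of these mitosis differences 9 and 8 are bounds, and without bounds the medians were 3.52 and 2.90 (16 genes each). The replication genes had medians of 1.01 (8 of 15 higher) and 0.90 (7 of 15 higher), and at 4-fold 2 of 15 were higher in each transplant. These comparisons share arrays, so their values stand side by side and are not independent of each other.

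**Figure D2:**
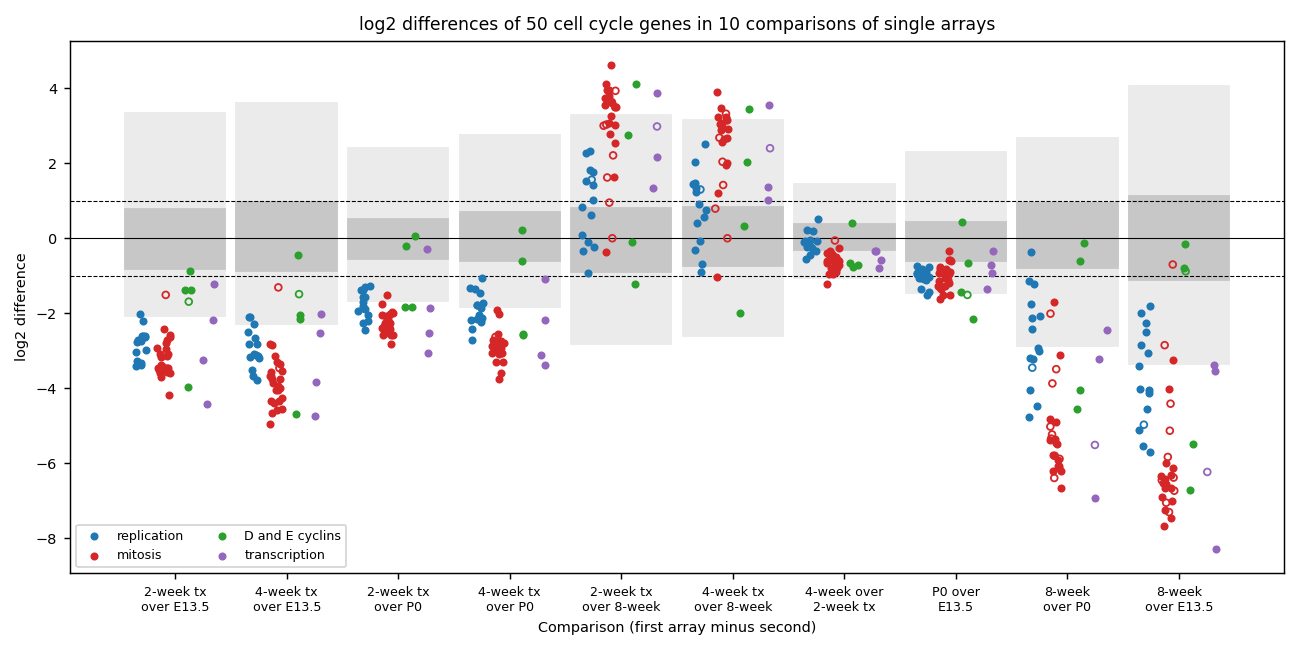
Log2 differences of the members in the 10 comparisons (1 dot per gene, coloured by role, open where the value is a bound), with grey bars for the middle 50% and the 5th to 95th percentile of all genes and dashed lines at 2-fold. By group median, the mitosis genes lie furthest from 0 in the comparisons with the 8-week kidney, and the replication genes lie closer to 0. The mitosis median is below 0 for that kidney against P0 and above 0 for the transplants. The single gene furthest from 0 for that kidney against P0 is Cdca7, of the transcription group.

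Licensing starts with Cdc6 and Cdt1, which load the Mcm helicase, and Gmnn (geminin), which blocks Cdt1. Cdc6 had levels of -3.82 and -4.08 in the 2-week and 4-week transplants, against -0.41, -1.93 and -7.17 in the E13.5, P0 and 8-week kidneys. It was not well above background at 8 weeks, so the transplants exceeded that kidney by at least 2.95-fold and at least 2.46-fold. Cdt1 did not share this, with levels of 0.75 and 0.61 in the transplants, against 3.72, 2.80 and 0.67 in the kidneys. Each transplant lay within 0.08 log2 units of the adult kidney for Cdt1, and above it by 0.63 and 0.30 without the percentile shift. Gmnn was likewise within 2-fold of the adult level, at -1.38 and -0.86 in the transplants, against 1.24, 0.48 and -1.27 in the kidneys.

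The 6 Mcm subunits form the helicase itself. At 8 weeks against P0 all 6 were lower, from 5.40-fold (Mcm7) to 27.1-fold (Mcm3), with a median of -3.21. Mcm2 had levels of -0.41 and -0.52 in the 2-week and 4-week transplants, against 2.62, 1.52 and -1.41 in the E13.5, P0 and 8-week kidneys. Mcm3 stood furthest above the adult kidney, at 1.12 and 1.31 in the transplants, against 4.49, 3.56 and -1.21 in the kidneys. Against 8 weeks, 5 of the 6 subunits were higher in the 2-week transplant (median 1.67) and 4 in the 4-week transplant (median 1.46), and 2 in each at 4-fold. In the 4-week transplant Mcm2 was at 1.86-fold. Mcm7 was within 2-fold in both, at 1.55-fold and 1.49-fold higher.

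Cdc45, which completes the active helicase, differed from the other licensing genes. Its levels were -4.35 and -4.11 in the 2-week and 4-week transplants, against -1.62, -3.06 and -3.42 in the E13.5, P0 and 8-week kidneys. Its 8-week level was only 1.29-fold below P0, and both transplants lay below all 3 kidneys.

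DNA synthesis needs the sliding clamp Pcna and a supply of deoxynucleotides from the reductase subunits Rrm1 and Rrm2, thymidylate synthase (Tyms) and thymidine kinase (Tk1). Rrm2 had the widest range of them, with levels of 0.88 and 0.43 in the transplants, against 4.21, 3.14 and -0.90 in the E13.5, P0 and 8-week kidneys. It was 3.42-fold and 2.51-fold higher in the 2-week and 4-week transplants than at 8 weeks, and Rrm1 was 2.70-fold and 2.34-fold higher. Pcna, which repair also uses, had levels of 3.54 and 3.48 in the transplants, against 5.57, 4.80 and 2.72 in the kidneys. It stayed within 2-fold of the adult kidney in both transplants.

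Tk1 and Tyms were close to the adult kidney in the transplants. Tk1 had levels of 0.68 and 0.12 in the 2-week and 4-week transplants, against 3.30, 2.24 and 1.03 in the E13.5, P0 and 8-week kidneys. A second Tk1 probe gave -1.92 and -2.57 in the transplants, against 0.52, -0.43 and -1.78 in the kidneys, the same order of arrays. Tyms had levels of -3.82 and -3.89 in the transplants, against -1.61, -2.45 and -3.60 in the kidneys. For both genes the 8-week kidney was 2.32-fold (Tk1) and 2.22-fold (Tyms) lower than at P0, and the transplants were within 2-fold of the 8-week kidney. Their small negative differences depend on scaling, since without the percentile shift Tyms lay above that kidney in both transplants and Tk1 in the 2-week transplant.

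Cyclins A and B activate Cdk1, and the phosphatase Cdc25c removes its inhibitory phosphates. Cdk1 had levels of -0.36 and -1.08 in the 2-week and 4-week transplants, against 2.59, 1.62 and -4.30 in the E13.5, P0 and 8-week kidneys. Ccna2 (cyclin A2) had 0.07 and -0.74 in the transplants, against 2.79, 2.20 and -3.88 in the kidneys. Ccnb1 (cyclin B1) had -0.38 and -1.27 in the transplants, against 3.31, 2.04 and -4.16 in the kidneys. All 3 followed the dominant order, and the adult kidney was 118-fold (Cdk1), 102-fold (Ccna2) and 177-fold (Ccnb1) below E13.5.

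Relative to the adult kidney the transplants were 15.3-fold and 9.33-fold higher for Cdk1 at 2 and 4 weeks. Ccnb2 (cyclin B2) was 12.2-fold and 9.42-fold higher. Relative to P0 the same genes were lower, with Cdk1 at 3.96-fold and 6.49-fold and Ccnb2 at 6.03-fold and 7.85-fold lower. A second, dimmer Cdk1 probe had the same sign against P0 but a smaller difference in the 4-week transplant (-0.71, against -2.70 for the probe used). In the 2-week transplant it gave -1.96, against -1.98 for the probe used. Another, still dimmer Cdk1 probe gave only -0.15 there. Cdc25c had -4.43 and -5.64 in the transplants, against -0.97, -1.89 and -7.60 in the kidneys, and was not well above background at 8 weeks.

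The mitotic kinases Plk1 and Aurka build the spindle poles, and Aurkb works at centromeres in the passenger complex with Birc5 (survivin) and Cdca8 (borealin). Plk1 had levels of 0.40 and -0.55 in the 2-week and 4-week transplants, against 3.99, 2.38 and -3.70 in the E13.5, P0 and 8-week kidneys. It was 17.2-fold and 8.83-fold higher in the transplants than at 8 weeks, and 3.92-fold and 7.61-fold lower than at P0. Birc5 had 2.17 and 1.58 in the transplants, against 5.32, 4.37 and -1.09 in the kidneys, and kept the same order.

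Aurka had -0.37 and -1.16 in the transplants, against 3.17, 1.66 and -3.17 in the kidneys. For Cdca8 the levels were 0.57 and -0.02 in the transplants, against 4.02, 2.95 and -1.96 in the kidneys. Aurkb, whose probe was dim, had -5.93 and -6.86 in the transplants, against -2.53, -3.37 and -7.70 in the kidneys. It was not well above background in the 4-week transplant or the 8-week kidney, so it gives no fold between these 2 arrays and only bounds between either of them and the others. Melk, a kinase of dividing cells, was not well above background at 8 weeks either, and the 2-week and 4-week transplants exceeded that kidney by at least 12.4-fold and at least 8.23-fold.

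The spindle checkpoint proteins Bub1, Bub1b and Mad2l1 restrain Cdc20, which with the ubiquitin-conjugating enzyme Ube2c lets the anaphase-promoting complex act. Cdc20, whose promoter is printed above, had levels of 1.02 and 0.53 in the 2-week and 4-week transplants, against 4.10, 3.32 and -2.04 in the E13.5, P0 and 8-week kidneys. Bub1 had -3.17 and -3.96 in the transplants, against 1.00, -0.36 and -7.10 in the kidneys, each the mean of 9 spots. The spots of Bub1 had an SD of 0.07 and 0.09 in the transplants, against 0.06, 0.05 and 0.37 in the kidneys, where 0 of 9 were well above background at 8 weeks. Differences between the other arrays were many times this spot error, and the largest measured difference of a member between the 4-week transplant and E13.5 was that of Bub1, 31.0-fold lower.

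Mad2l1 differed least of the checkpoint genes, with 0.31 and -0.10 in the transplants, against 2.72, 1.81 and -1.30 in the kidneys. Ube2c had 0.03 and -0.46 in the transplants, against 3.48, 2.61 and -3.51 in the kidneys. All 5 checkpoint and complex genes were higher in each transplant than at 8 weeks, with Ube2c at 11.7-fold and 8.31-fold and Mad2l1 at 3.06-fold and 2.30-fold.

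Cenpa, the histone variant that marks centromeres, stood furthest above the adult kidney among members measured on both arrays. Its levels were -0.12 and -0.86 in the 2-week and 4-week transplants, against 2.51, 1.93 and -4.74 in the E13.5, P0 and 8-week kidneys. That is 24.6-fold and 14.8-fold higher than at 8 weeks, and 4.13-fold and 6.88-fold lower than at P0. The kinetochore motor Cenpe went against the group. It had -0.46 and -1.12 in the transplants, against 3.14, 1.62 and -0.09 in the kidneys, and was 2.03-fold lower in the 4-week transplant than at 8 weeks, just past the threshold. Without the percentile shift that difference was -0.66, and the one in the 2-week transplant was 0.18, against -0.37 with it. Its 8-week level was 3.28-fold below P0, the smallest such difference among the 25 mitosis genes compared.

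The spindle motors Kif11, Kif20a and Kif23 and the spindle proteins Nusap1 and Tpx2 kept the dominant order. Kif20a, needed in cytokinesis, had -0.65 and -1.02 in the transplants, against 2.85, 1.71 and -3.67 in the kidneys. Kif11, Kif23 and Tpx2 were not well above background at 8 weeks, and the 2-week transplant exceeded that kidney by at least 3.08-fold, 8.17-fold and 11.3-fold. Nusap1 was 11.4-fold and 7.54-fold higher in the 2-week and 4-week transplants than in the adult kidney. Cenpf, a kinetochore protein, was well above background only at E13.5 (level -4.68), so the transplants could be compared with that kidney alone.

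Mki67 (the Ki-67 antigen) and Top2a are the usual stains and markers of proliferating tissue. Mki67 had levels of 0.83 and 0.57 in the 2-week and 4-week transplants, against 3.42, 2.59 and -2.90 in the E13.5, P0 and 8-week kidneys. It was 13.2-fold and 11.1-fold higher in the transplants than at 8 weeks, and 3.39-fold and 4.06-fold lower than at P0. Top2a had -1.45 and -2.06 in the transplants, against 1.92, 1.01 and -6.17 in the kidneys, and was not well above background at 8 weeks. Both transplants thus lay between the newborn and the adult kidney for each marker.

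The D-type cyclins link growth signals to the cycle, and each behaved differently. Ccnd1 had levels of 2.22 and 1.46 in the 2-week and 4-week transplants, against 3.60, 4.04 and 3.44 in the E13.5, P0 and 8-week kidneys. It was at its highest at P0, the 8-week kidney was 1.52-fold below that, and the transplants lay 2.33-fold and 3.94-fold below the 8-week kidney. It was the only member 2-fold lower in the 2-week transplant than in the adult kidney, and in other scalings that difference of -1.22 came to less than 2-fold (-0.67 without the percentile shift).

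Ccnd2 had 2.19 and 1.53 in the transplants, against 3.57, 2.13 and -1.92 in the kidneys. Unlike the mitotic genes, it was close to the newborn level in the 2-week transplant (difference 0.06) and 1.52-fold below it in the 4-week transplant, and 17.2-fold and 10.9-fold above the adult kidney. Ccnd3 had 4.10 and 4.52 in the transplants, against 4.96, 4.30 and 4.18 in the kidneys, and was within 2-fold in all 10 comparisons. The sign of its small differences depended on the probe for the 2-week transplant against 8 weeks and for the 4-week transplant against P0.

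Among the E-type cyclins, which start S phase, Ccne1 had 0.06 and -0.66 in the transplants, against 4.03, 1.88 and -2.68 in the kidneys. It showed the largest measured difference of a member between birth and E13.5, 4.44-fold lower at P0. Against 8 weeks the 2-week and 4-week transplants were 6.66-fold and 4.06-fold higher. Ccne2 was well above background only at E13.5 (level -4.50), so the transplants could be compared with that kidney alone.

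**Figure D3:**
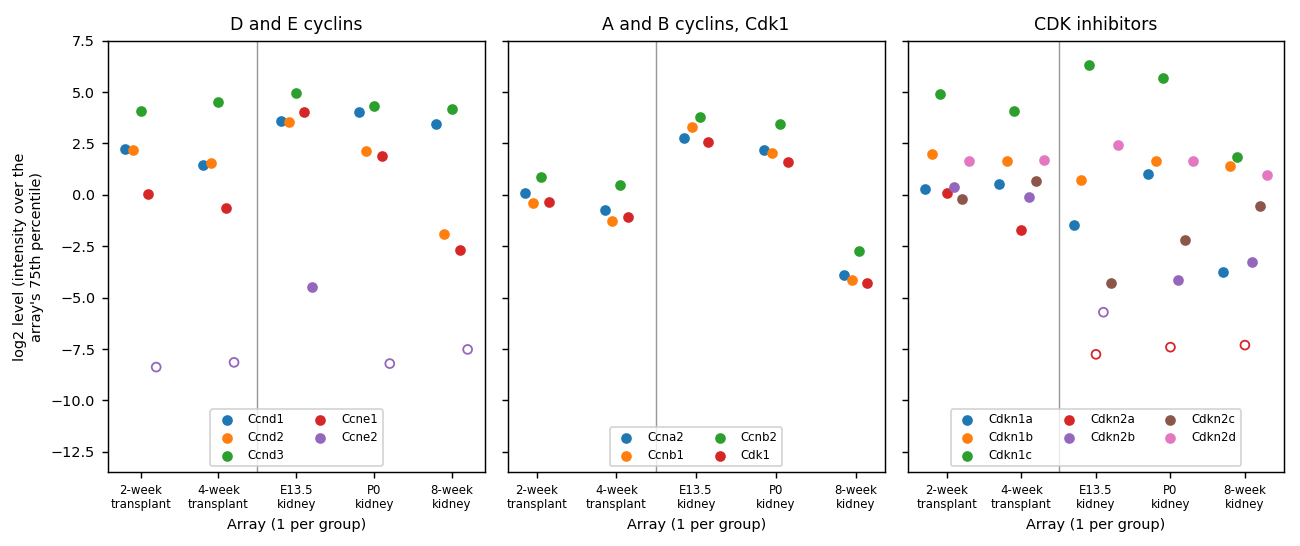
Log2 levels on the 5 arrays of the D- and E-type cyclins, of the A- and B-type cyclins with Cdk1, and of the CDK inhibitors (points in 1 colour per gene, open where the probe was not well above background). The mitotic cyclins share 1 shape, with the 8-week kidney lowest, the D-type cyclins differ from each other, and Cdkn2a and Cdkn2b are highest in the transplants.

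E2f1 activates S-phase genes, E2f8 represses them late in S phase, Foxm1 activates mitotic genes, and Cdca7 is a target of E2F and Myc that takes part in chromatin remodelling. Cdca7 had levels of -0.56 and -0.90 in the 2-week and 4-week transplants, against 3.85, 2.50 and -4.44 in the E13.5, P0 and 8-week kidneys. It had the largest difference of the members measured on both arrays in 4 of the 10 comparisons. It was 313-fold lower at 8 weeks than at E13.5, 122-fold lower at 8 weeks than at P0, and 8.29-fold lower in the 2-week transplant than at P0. Foxm1 had -2.12 and -2.46 in the transplants, against 0.07, -0.27 and -3.48 in the kidneys.

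E2f1 had -0.27 and -1.07 in the transplants, against 0.95, 0.02 and -2.43 in the kidneys. In the 2-week transplant it was only 1.22-fold below P0. E2f8 had -2.40 and -2.98 in the transplants, against 0.84, 0.13 and -6.38 in the kidneys, and was not well above background at 8 weeks. All 4 regulators were higher in each transplant than at 8 weeks, by medians of 2.57 at 2 weeks and 1.88 at 4 weeks.

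Between the graft times the members differed little in size but mostly in 1 direction. In the 4-week against the 2-week transplant, 1 of 48 compared members was lower and 0 higher (all genes: 5.68% lower, 9.10% higher), with a median of -0.49, against 0.00 over all genes. The lower gene was Cdc25c, 2.32-fold. The 4-week level was below the 2-week level for 44 members, among them 25 of 25 mitosis genes (median -0.60) and 12 of 15 replication genes (median -0.11). Gmnn (0.52), Ccnd3 (0.42), Cdc45 (0.23) and Mcm3 (0.20) were higher at 4 weeks by less than 2-fold. Other probes of Cdk1 (1.25, against -0.71 for the probe used), Gmnn (-0.27) and Mcm3 (-0.54) gave the opposite sign here. The mitosis median stayed below 0 in every alternative computed, from -0.79 to -0.54. These transplants lay on different slides, which at differences this small cannot be told apart from the graft time.

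The wider pathway was described with 9 further lists of 129 genes. At 8 weeks against P0, 78 of 126 compared genes were lower and 7 higher, with a median of -1.50 (all genes: 21.0% lower, 23.6% higher). In the 2-week transplant against 8 weeks 44 of 123 (35.8%) were higher and 7 lower, with a median of 0.64 (all genes: 21.7% higher, 22.5% lower). In the 4-week transplant 37 of 121 (30.6%) were higher and 4 lower, with a median of 0.38 (all genes: 22.3% higher, 18.6% lower). The counts of single lists below are to be read against these shares of all genes. Both medians are nearer to 0 than those of the 50 members.

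The CDK inhibitors, which brake the cycle, did not share 1 order. Against 8 weeks, 4 of 7 were higher and 0 lower in the 2-week transplant (median 3.08), and 5 of 7 higher and 0 lower in the 4-week transplant (median 2.25). At 8 weeks against P0, 1 of 6 was higher and 2 lower.

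Cdkn2a, which encodes p16 and p19ARF and is known to accumulate in senescent cells, had levels of 0.10 and -1.69 in the 2-week and 4-week transplants, against -7.76, -7.41 and -7.31 in the E13.5, P0 and 8-week kidneys, where it was not well above background on any of the 3. The 2-week transplant exceeded these kidneys by at least 63.6-fold, 69.1-fold and 44.5-fold. A second Cdkn2a probe was well above background only in the 2-week transplant (level -4.07). Its neighbour Cdkn2b (p15) had 0.39 and -0.12 in the transplants, against -5.71, -4.15 and -3.27 in the kidneys, and was dim at E13.5. The transplants were 23.2-fold and 16.4-fold above P0 for it. These arrays also carried the higher macrophage and adipocyte markers given above, whose part in these values was not tested.

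Cdkn1a (p21, induced by p53) had 0.28 and 0.53 in the transplants, against -1.45, 1.02 and -3.74 in the kidneys. With the probe used, the transplants were 16.2-fold and 19.4-fold above the adult kidney and within 2-fold of P0, on its lower side. A second, dimmer Cdkn1a probe had -4.53 and -5.84 in the transplants, against -7.63, -6.17 and -6.19 in the kidneys. It was well above background in the transplants only, and with it both lay above P0. Cdkn1c (p57), which podocytes also express, had 4.92 and 4.09 in the transplants, against 6.34, 5.69 and 1.84 in the kidneys, an order like that of the cyclins. Cdkn2c (p18) was lowest at E13.5 and P0, with -0.22 and 0.68 in the transplants, against -4.28, -2.22 and -0.56 in the kidneys. Cdkn1b (p27) and Cdkn2d (p19) were within 2-fold of the adult kidney in both transplants.

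Against P0, 15 of 17 kinetochore and cohesion genes and 14 of 16 condensin and cytokinesis genes were lower at 8 weeks. Their medians were -2.93 and -3.23, with 7 bounds in each list. As computed, these are nearer to the replication members (-2.93, with 1 bound) than to the mitosis members (-5.46, with 9 bounds). A bound gives the least size of a difference, so the medians of these lists may understate how far they lay below P0. In the 4-week transplant against 8 weeks, their medians were 1.51 and 1.07, against 0.90 (replication) and 2.78 (mitosis). There 9 of 16 kinetochore genes and 7 of 14 condensin and cytokinesis genes were higher. Spc25, part of the Ndc80 complex, was an exception, with 2.26 and 1.10 in the transplants, against 5.01, 4.08 and 3.73 in the kidneys. The core subunits of the anaphase-promoting complex, as distinct from its partners Cdc20 and Ube2c, hardly differed between 8 weeks and P0, with 0 of 11 lower, 1 higher (Anapc13) and a median of -0.33.

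The polymerase and clamp loader list had 20 of 24 genes lower at 8 weeks than at P0, and 7 of 24 (29.2%) higher and 1 lower in each transplant than at 8 weeks, where 21.7% and 22.3% of all genes were higher. Prim2 (the large primase subunit) had -1.26 and -1.12 in the transplants, against -3.88, -4.77 and -5.88 in the kidneys, at least 19.2-fold higher in the 4-week transplant than at 8 weeks. Prim2 did not follow the members' order.

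Among the origin and GINS genes, 7 of 14 were lower at 8 weeks than at P0 and 1 higher. The higher gene was Mcm10, an initiation factor, with -2.05 and -2.47 in the transplants, against 2.15, 0.36 and 1.38 in the kidneys. It was 14.4-fold lower in the 4-week transplant than at 8 weeks. The list of pocket proteins, E2F and DREAM genes had 6 of 16 lower and 2 higher at 8 weeks than at P0, against 21.0% and 23.6% of all genes. Rbl2 (p130), which represses cell cycle genes in resting cells, was 2.85-fold higher at 8 weeks than at P0.

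In the list of interphase kinases and other cyclins, Ccnf (cyclin F) was 179-fold lower at 8 weeks than at E13.5, and Ccng1 (cyclin G1, a p53 target) 5.68-fold higher. Of the checkpoint and repair list, 8 of 10 genes were lower at 8 weeks than at P0. The exonuclease Exo1 had the lowest difference of that list between 8 weeks and E13.5, a log2 difference of -7.64 that is a bound, with levels of -2.79 and -3.37 in the transplants, against 2.45, -0.52 and -5.20 in the kidneys, where it was not well above background at 8 weeks.

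**Figure D4:**
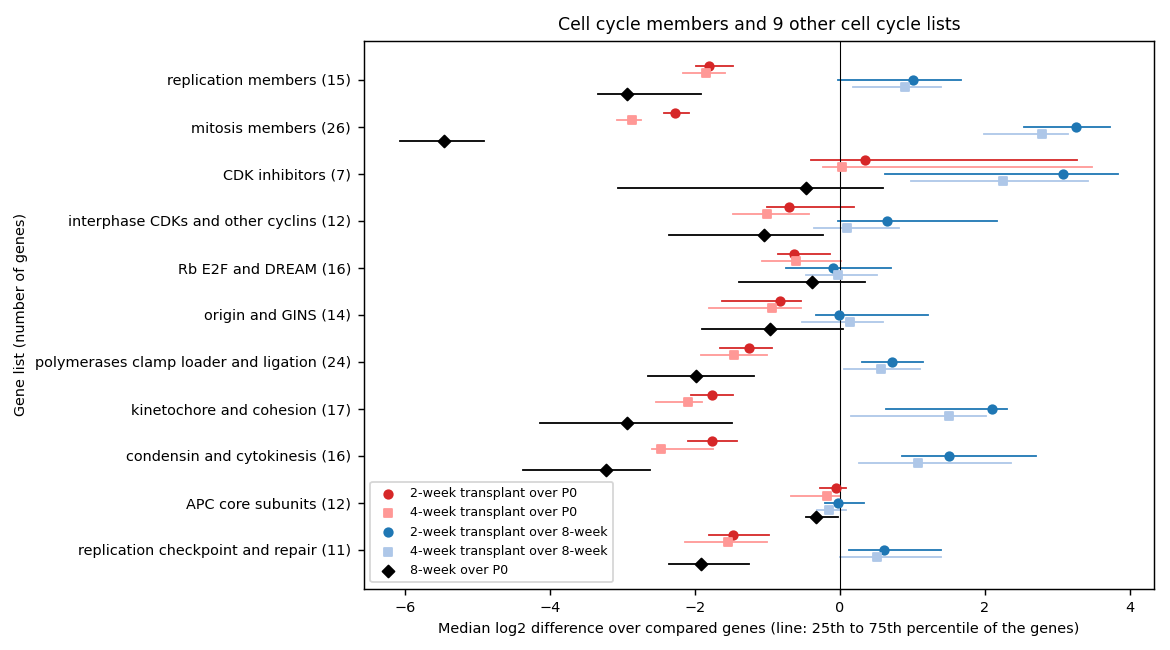
Median log2 difference (points) with the 25th to 75th percentile over genes (bars) of the replication and mitosis members and of the 9 further pathway lists in 5 comparisons. The mitosis members lie furthest from 0 in the comparisons with the 8-week kidney, the core subunits of the anaphase-promoting complex lie near 0, and the CDK inhibitors have a wide bar.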

How the data were processed

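RNA of each group was hybridised to 1 one-colour Agilent mouse array. The deposited files hold a processed intensity for every spot, with background removed by the scanner software (Agilent Feature Extraction, version 10.7.3.1 in the headers). Other deposited columns, per the file headers, mark spots as well above background, saturated (0 spots) or outlying. The authors' deposited gene table holds log2 values. Of these, 99.6% were within 0.01 of the log2 intensity without a percentile shift, centred per gene, and 18.2% with one, so the table served as an alternative.

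Here the log2 intensity was taken minus the log2 of its 75th percentile over the array's 43020 gene spots (Python 3.11.15, numpy 2.4.6, pandas 2.3.3). Outlier spots were left out and spots of a probe averaged. The probe with the highest mean stood for its gene, and 16 members had several. Where 1 side was dim, its value was raised, where lower, to that array's lowest signal well above background. A bound that turned the direction entered as 0. Of 39414 probes, 31781 were named through RefSeq. In all, 19366 genes were well above background on some array. The number of arrays limits the precision.

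The members, lists, motifs and named genes were chosen with earlier results of these data known. Members were given by role, in full where they define a role group, lie furthest apart or go against their group. Pathway genes were named where furthest apart or against their list. The counting steps were run on simulated data with known differences and spot noise only. That run formed no bounds and held no spread between arrays or animals. It therefore checked the arithmetic and not the precision of the counts. Alternatives were normexp background correction (limma 3.58.1 in R 4.3.3, offset 50) on the median signals the files hold, quantile normalization, other scalings, the authors' table, the mean over probes, no bounds and 4-fold. One gene of the polymerase and clamp loader list enters its counts and is not reported by name here.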

Additional observations from a re-analysis of the deposited data

How the results depend on the processing

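Of 3842 values of single genes under the alternatives, 0 of those at least 2-fold apart turned their direction, 3697 stayed on the same side of 2-fold and 145 crossed it. The count of members lower at P0 than at E13.5 was 23, and 10 with normexp background correction, whose fit gave the E13.5 array a background mean of -992, and 1 at 4-fold. Members lower in the 2-week transplant than at P0 numbered 45, and 27 at 4-fold. In the 4-week against the 2-week transplant the count was 1. It was 0 with normexp, 0 with normexp on the negative controls, 0 at 4-fold, 3 with quantile normalization, 5 without the percentile shift, 3 with the percentile over probes detected on all arrays and 6 in the authors' table. In the other comparisons the count of all members in the commoner direction stayed within 1.5 times the value reported. Smaller counts did not: at 4-fold, against 8 weeks, replication genes higher numbered 2 rather than 8 in the 2-week and 2 rather than 7 in the 4-week transplant, Mcm subunits 2 rather than 5 and 2 rather than 4, and members lower 0 rather than 1 and 0 rather than 2. Leaving out the percentile shift moved the median of all genes to 0.43 and 0.32 in the 2-week and 4-week transplants against 8 weeks, to -0.42 at 8 weeks against P0, to -0.50 at 8 weeks against E13.5, to -0.21 in the 4-week transplant against P0, to -0.19 against the 2-week transplant and to -0.13 against E13.5. Members below the 8-week kidney then numbered 2 rather than 7 in the 2-week transplant and 4 rather than 6 in the 4-week transplant. The 75th percentile intensities were 1713.4 and 1503.9 in the 2-week and 4-week transplants, against 1619.7, 1720.1 and 1170.2 in the E13.5, P0 and 8-week kidneys. Why these percentiles differ was not tested, nor was the cause of the changes under the other alternatives. No paired analysis was possible because each group holds 1 array. Leaving out an array leaves a group with none, so it was not run. Values at 8 weeks are limited by signal, with 13 of 50 members not well above background there.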
